A study of Saccharomyces cerevisiae with 22 samples.

Results

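The 12 libraries described here are the polyA-selected RNA-seq libraries of a budding yeast series, set apart by a label for how well polyA RNA was recovered. They were taken by that label from the 22 samples of the series: 2 polyA libraries carry the label low and 10 carry the label norm, while the 10 libraries of total RNA were not used. The series profiled strains whose ribosomal DNA arrays differ in length, and each library came from 1 strain. All 12 strains share the genotype MATa his3d1 lyp1d0 can1d::STE2pr-spHIS5 and were labelled as culture, with no treatment, growth stage or replicate culture given.

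The low libraries came from a strain with 104 rDNA repeats of the series CGY24 and a strain with 166 repeats of the series CGY28. The norm libraries came from strains with 72, 129 and 156 repeats (CGY24), 84 repeats (CGY29), 118, 147 and 237 repeats (CGY20) and 197, 208 and 224 repeats (CGY28). No strain had a library of both labels, so low recovery and what is particular to these 2 strains cannot be told apart. Libraries are named below by label and repeat number. The p-values measure only the spread between these 12 libraries, and in bulk RNA fewer cells with a transcript and less of it per cell cannot be told apart.

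Selection on oligo(dT) keeps RNAs that end in, or contain, a stretch of adenosines long enough to pair with the bound thymidines. Most messenger RNAs of the yeast nucleus carry such a tail, added after cleavage of the 3′ end and shortened in the cytoplasm by the Pan2-Pan3 and Ccr4-Not deadenylases. Transcripts of the yeast mitochondrial genome have no long poly(A) tail, so they pass the selection poorly. What the label low was based on is not given in the sources used here, and the amount recovered is not among the values analysed. TPM, a length-normalised abundance scaled to the same sum in every library, keeps no depth. The label could be set only against the composition of each library.

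Few genes set the 2 low libraries apart from the 10 norm libraries. Of 5539 genes tested, 1 was higher in low at an adjusted p under 0.05 (limma, 0.0181% of genes tested) and 0 were lower (0%; 118 at an unadjusted p under 0.05). That gene was YNL143C, an uncharacterized frame of chromosome XIV, at 2.92 times the norm mean. Transcripts of the mitochondrial genome, summed over all 19 entries, made up 24.8 and 20.1 TPM in low, against 28.2 to 113 TPM in norm, and no gene among them passed the test.

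YNL143C is shown first because it was the only gene called and because its coding sequence holds the longest unbroken run of A of any of the 5817 entries matched to the RefSeq annotation. It lies on the minus strand at chrXIV:356794-357186 of the S288C assembly R64, which is the build sacCer3, and is a single coding frame of 393 bases. The run is 32 A long, at coding bases 143 to 174. The 92 coding bases around it (chrXIV:356983-357074, minus strand) are printed with the run in capitals, beside the gene with the next longest run as a comparison, chosen for that run after the values of YNL143C were seen. That gene, MTC7, lies on the plus strand at chrV:86179-86598 and has 25 A at coding bases 311 to 335, shown in its window chrV:86459-86543.
YNL143C: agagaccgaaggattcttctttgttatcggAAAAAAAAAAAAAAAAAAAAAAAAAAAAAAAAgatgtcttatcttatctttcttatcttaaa
MTC7: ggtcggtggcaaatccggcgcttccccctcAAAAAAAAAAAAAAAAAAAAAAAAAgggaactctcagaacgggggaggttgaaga

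YNL143C stood at 54.8 TPM in the low library with 104 repeats and at 27.4 TPM in the low library with 166 repeats. In the norm libraries it ran from 11.2 TPM at the lowest through a median of 13.7 to 18.1 TPM at the highest. Both low libraries thus lay above all 10 norm libraries, the one with 104 repeats by more. The difference, low minus norm, was 1.42 ± 0.21 (SE) on the log2(TPM + 1) scale, with a 95% interval of 0.98 to 1.86, an unadjusted p of 6.2e-06 and an adjusted p of 0.0343 in limma. Against norm libraries of its own strain series alone, the low library with 104 repeats was higher by 1.96 and the one with 166 repeats by 0.99.

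The call was fragile. It was lost with strain series as a covariate (adjusted p = 0.134 in limma), with repeat number as a covariate (0.0988) and against norm libraries of the series CGY24 and CGY28 only (0.279). Leaving out any 1 of 8 norm libraries also ended it, at adjusted p from 0.0526 to 0.208, and 3 of 12 fits that left out 1 library kept it. Without the low library with 104 repeats, the one with 166 repeats differed from the 10 by 0.93, with an adjusted p of 0.795 in limma. The library with 104 repeats alone differed from them by 1.90 (adjusted p = 0.000754 in limma). In these 2 fits the lone low library is assumed to vary as the norm libraries do. The next gene by p had an adjusted p of 0.453.

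MTC7 did not follow YNL143C. It stood at 469 and 444 TPM in the low libraries with 104 and 166 repeats, against 411 to 509 TPM with a median of 437 in norm. Its difference was 0.04 ± 0.08 (SE), with a 95% interval of -0.12 to 0.20 and an adjusted p of 0.999 in limma, and both low libraries lay inside the norm range. The third entry with a run of at least 15 A, YIR018C-A with 19 A, was listed at 0 in both low libraries and in 6 of the 10 norm libraries, with 2.17 to 4.78 TPM in the other 4, and had too little signal to be tested.

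Shorter runs showed no step in the same direction. The 45 genes with a longest run of 11 to 14 A had a median difference of -0.05, and the 254 genes with 9 or 10 A one of -0.04. TFC1, a subunit of the polymerase III factor TFIIIC with a run of 14 A, stood at 12.2 and 9.90 TPM in low and differed by -0.05 ± 0.15 (SE). The A runs were looked at after the values of YNL143C were known, and whether the run bears on its level was not tested. The frames flanking YNL143C did not share its rise: MEP2, an ammonium permease, stood at 10.7 and 11.2 TPM in low and at 8.04 to 11.9 TPM in norm. On the other side, MPF1 stood at 2.003 and 1.47 TPM in low, against 1.99 to 2.81 TPM in norm.

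**Figure D1:**
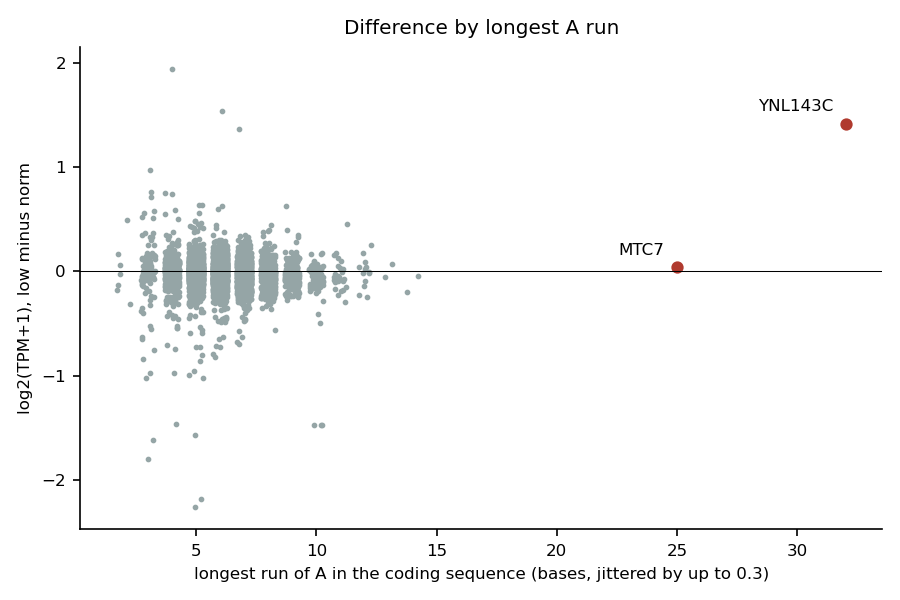
Difference between low and norm libraries (vertical axis, log2(TPM + 1), low minus norm, 2 against 10 libraries) by the longest run of A in the coding sequence (horizontal axis, bases), 1 point a gene tested. YNL143C, with 32 A, stands at 1.42, while MTC7, with 25 A, stands at 0.04.

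The other genes scattered narrowly. The median difference over all genes tested was -0.01, the median SE was 0.109, and the median 95% interval reached 0.231 to either side. Of the 5539 genes tested, 2477 had a positive difference and 3062 a negative one. Counts called or positive in the lists below are to be read beside these, with 1 gene called in all. For 4890 genes (88.3%) the 95% interval lay within 0.5 log2 units of 0, and for 5409 genes (97.7%) within 1. A difference above 1 in size was seen for 15 genes, of which 1 was called. At an unadjusted p under 0.05 limma gave 155 genes (2.8%), 37 higher (0.668%) and 118 lower (2.13%) in low.

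By range, both low libraries lay above all 10 norm libraries in 35 genes (0.632%) and below all 10 in 96 genes (1.73%). These were 131 genes in all (2.37%). With the labels placed at random, a share of 0.0303 of genes would be expected outside on the same side. The 131 genes together were thus no excess. Taken singly, the low library with 104 repeats was above the norm range in 575 genes (10.4%) and below it in 428 (7.73%). The low library with 166 repeats, taken singly, was above it in 250 genes (4.51%) and below it in 432 (7.8%). The counts for each library include the 131 genes. In 36 genes the 2 low libraries lay outside on opposite sides, and in 4021 genes neither lay outside. Only YNL143C cleared the norm range by at least 0.5 log2 units in both.

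**Figure D2:**
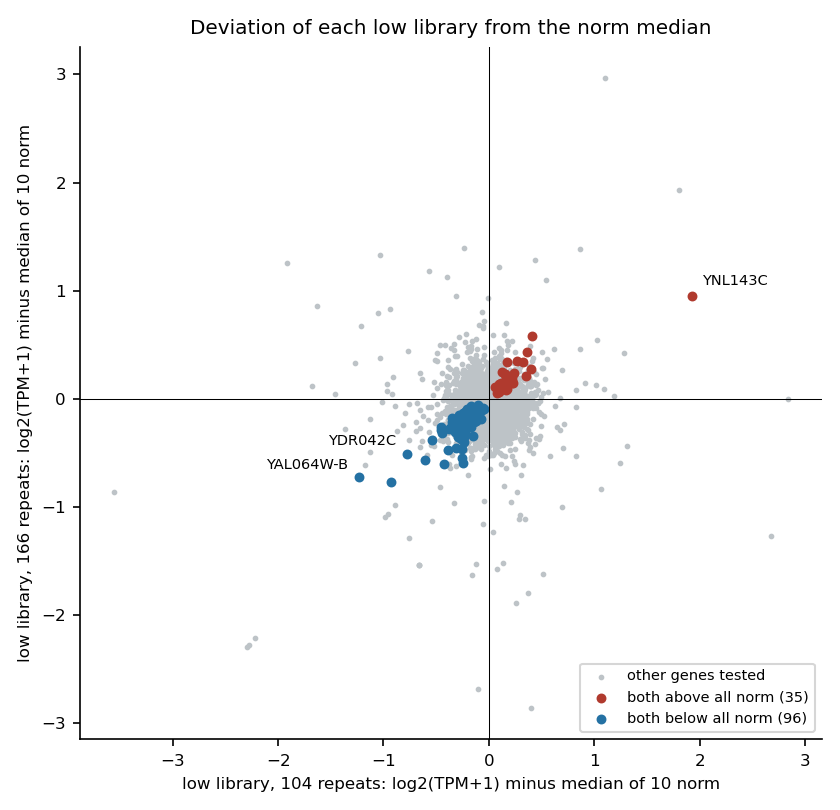
Deviation of the low library with 104 repeats (horizontal axis) and with 166 repeats (vertical axis) from the median of the 10 norm libraries, log2(TPM + 1), 1 point a gene tested. The 35 genes above and 96 genes below all norm libraries in both (coloured) lie mostly close to 0, with YNL143C, YAL064W-B and YDR042C farther out, and the grey points farther out were not outside the norm range on the same side in both.

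The genes beyond the norm range on each side differed in length. The 96 genes below it in both low libraries had a median coding length of 2172 bases, a median GC content of 39.4% and a median level of 13.97 TPM. The 35 genes above it had medians of 888 bases, 41.8% and 42.0 TPM, beside 1221 bases, 39.8% and 23.4 TPM over all genes tested. These are descriptions of genes chosen by these libraries, and the part of length in the counts was not tested. With the dependence on coding length and mean level taken out of each library, 55 genes lay above and 78 below, and 57 of these 133 genes were among the 131.

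No whole-library measure passed its test. The Spearman correlation of each gene's deviation with its coding length, across genes, was -0.28 and -0.16 in low and ran from -0.35 to 0.33 in norm, with a median of -0.02 (exact permutation test over 66 arrangements, two-sided, p = 0.182, adjusted over 6 measures 0.424). With GC content it was 0.03 and 0.32 in low and -0.26 to 0.31 in norm, so the low library with 166 repeats lay just above every norm library (exact permutation p = 0.212, adjusted 0.424). With mean abundance it was 0.11 and 0.16 in low and -0.26 to 0.19 in norm (exact permutation p = 0.182, adjusted 0.424). None of the 3 differences passed its test.

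The count of genes listed at 0 and the weight of the most abundant genes did not pass their tests either. Entries at 0 TPM numbered 96 and 104 in low, against 87 to 121 in norm with a median of 92 (exact permutation p = 0.636, adjusted 0.636). The 50 most abundant genes held 35.3% and 36.3% of all TPM in low, against 34.7% to 37.6% in norm (exact permutation p = 0.424, adjusted 0.509). The median absolute deviation from the norm median profile was 0.0920 and 0.101 log2 units in low and 0.0557 to 0.202 in norm (exact permutation p = 0.394, adjusted 0.509). All 6 tests were two-sided, and the smallest p that 2 against 10 libraries allow is 0.0303.

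The library farthest from the rest carried the label norm. The norm library with 208 repeats had the most entries at 0, the largest share in the top 50 genes and the largest median deviation, and it was the lowest of the 12 libraries in 2373 genes, against 391 and 373 genes in low. Without it, 54 genes lay above and 206 below the norm range in both low libraries, 260 in all, and limma called 0 genes (342 at an unadjusted p under 0.05), with YNL143C at an adjusted p of 0.208.

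**Figure D3:**
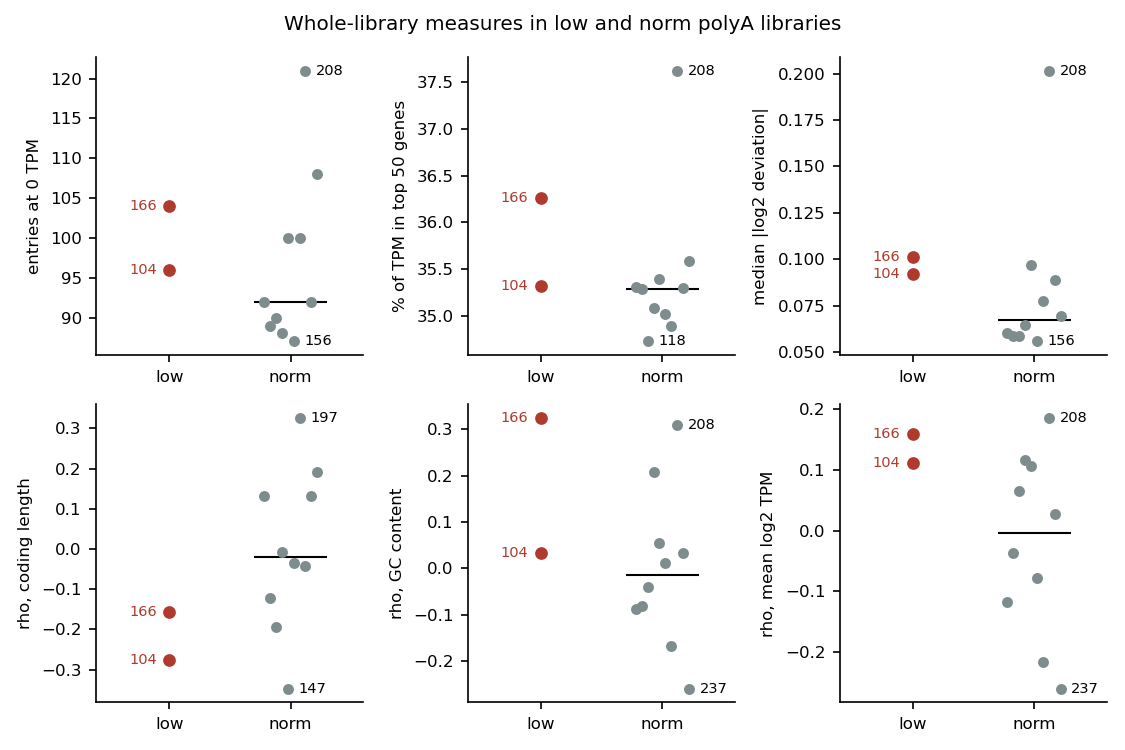
The 6 whole-library measures in each polyA library, low left and norm right, 1 point a library, labelled by repeat number in low and at the norm extremes; the bar is the norm median. The low libraries lie inside the norm range in 5 measures, and the norm library with 208 repeats is the highest of the norm libraries in 5, with 121 entries at 0 and a median deviation of 0.202.

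The mitochondrial genome encodes core subunits of the respiratory chain and of the ATP synthase, along with proteins read from introns. Its 19 entries summed to 24.8 and 20.1 TPM in the low libraries with 104 and 166 repeats. In norm the sum ran from 28.2 TPM through a median of 35.3 to 113 TPM. Both low libraries thus lay below all 10 norm libraries, of which those with 197 and 224 repeats stood apart at 113 and 103 TPM, while the other 8 reached at most 38.8 TPM. In 11 of the 19 entries both low libraries lay below the norm median, in 2 both lay below every norm library, and 1 entry was listed at 0 in all 12 libraries. Limma tested 7 entries with a mean of at least 1 TPM and called 0 of them, with 1 at an unadjusted p under 0.05. Of the 7, AI1, AI2 and AI4 reached that mean only through the norm libraries with 197 and 224 repeats, so for these 3 the filter itself favoured a lower value in low.

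OLI1, which encodes the ring subunit c of the ATP synthase, stood at 16.5 and 13.4 TPM in low, against 17.4 to 69.6 TPM in norm with a median of 20.0. The norm libraries with 224 and 197 repeats, at 69.6 and 57.4 TPM, stood far above the other 8. The difference was -0.75 ± 0.50 (SE, adjusted p = 0.999 in limma), and both low libraries lay below all 10 norm libraries. COX1, the largest subunit of cytochrome c oxidase, stood at 1.99 and 1.41 TPM in low and at 1.46 to 12.8 TPM in norm, with overlap. SCEI, the homing endonuclease read from the intron of the large mitochondrial rRNA, stood at 1.86 and 1.53 TPM in low and at 2.34 to 4.50 TPM in norm, with no overlap and a difference of -0.56 ± 0.16 (SE, adjusted p = 0.999 in limma).

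Of the proteins read from COX1 introns, the 4 tested, AI1, AI2, AI4 and AI5_BETA, were at or under 1.59 TPM in both low libraries. AI1 was inside its norm range of 0.139 to 7.11 TPM in both. AI2, AI4 and AI5_BETA were each below their norm range in only 1 low library. AI3 and AI5_ALPHA were not tested. AI3 stood at 0.311 and 0.357 TPM in low, above its norm median of 0.269 TPM. AI5_ALPHA stood at 0.43 and 0.385 TPM in low, below its norm median of 0.513 TPM. These frames lie within the COX1 gene, so their values are not independent of it. Over the 7 tested mitochondrial entries the median difference was -0.69. Both low libraries lay below the norm range of this list's median in 15 of 15 other settings. Each of these settings kept the same 7 entries, 3 of which passed the filter only through the norm libraries with 197 and 224 repeats. The settings thus could not check the effect of that filter. The size of the differences depended on 2 norm libraries of the series CGY28, those with 197 and 224 repeats. Without them the median difference was -0.38. For OLI1 the low library with 166 repeats differed from the norm mean of its own series, which holds both, by -1.61, and the one with 104 repeats from that of its own by -0.40.

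Nuclear genes of the respiratory chain, the partners of these subunits, had small differences. Of 40 tested, 5 had a positive difference, beside 2477 of 5539 over all genes. The median difference was -0.10, beside -0.01 over all genes. The list's median deviation was -0.09 and -0.07 in low and -0.06 to 0.08 in norm. ATP17, subunit f of the ATP synthase, stood at 223 and 217 TPM in low, against 231 to 271 TPM in norm, with no overlap and a difference of -0.21 ± 0.06 (SE, adjusted p = 0.999 in limma). COX7 stood at 279 and 236 TPM in low and at 261 to 392 TPM in norm, with overlap. Both low libraries remained below the norm range in 9 of 15 other settings. The one with 166 repeats lay inside it in the other 6, which were median-ratio scaling, quantile normalisation, removal of the dependence on length and level, and leaving out the norm library with 72, 147 or 237 repeats.

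**Figure D4:**
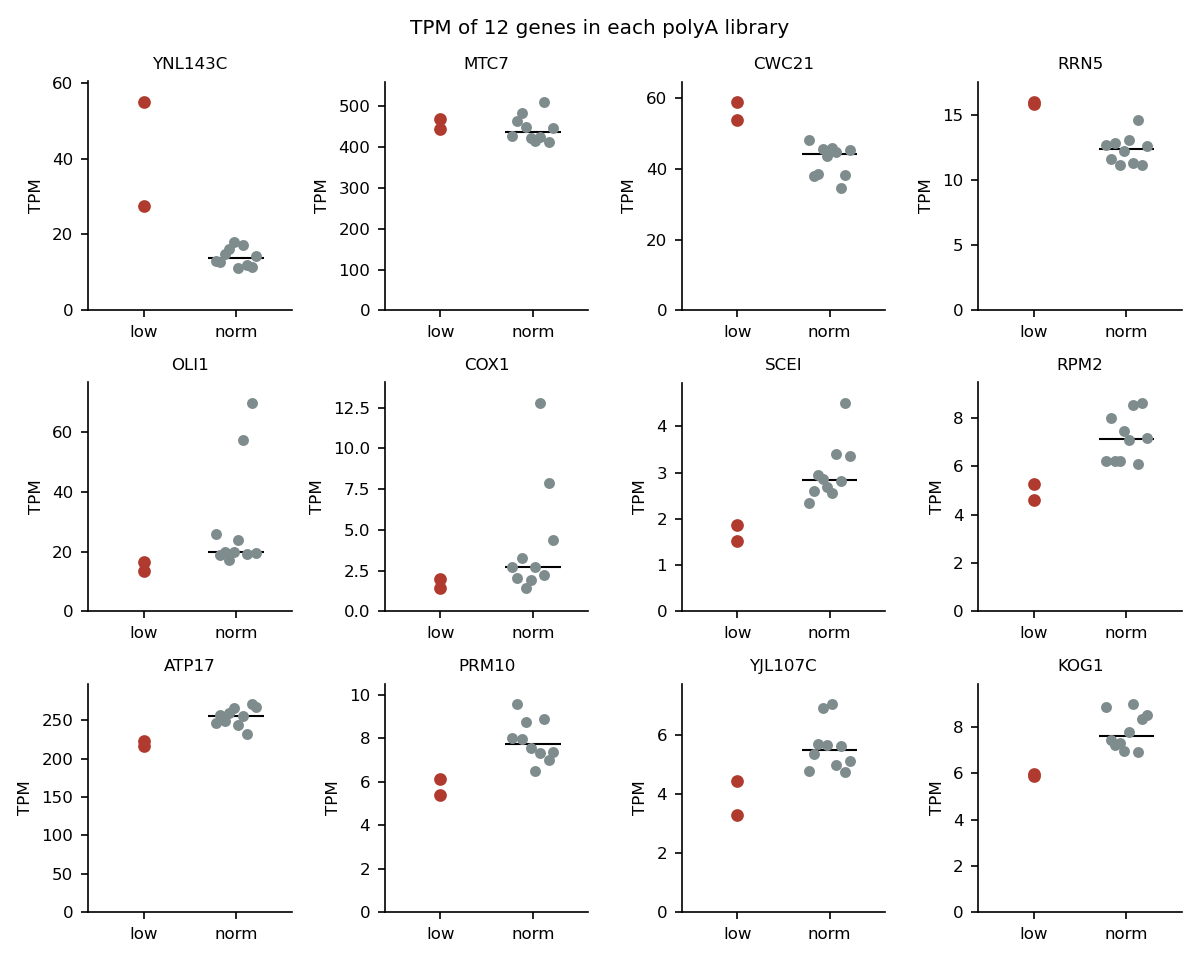
TPM of 12 genes in each polyA library, low (2 libraries) left and norm (10 libraries) right, linear axes from 0, with the bar at the norm median. YNL143C in low stands at 54.8 and 27.4 TPM above every norm library, MTC7 overlaps, and OLI1 and COX1 have their 2 highest values in the norm libraries with 197 and 224 repeats.

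Among genes with a symbol, the 6 of lowest p on each side all had an adjusted p of 0.999 in limma. On the higher side, CWC21, a spliceosome-associated protein, stood at 58.8 and 53.9 TPM in low, against 34.6 to 48.1 TPM in norm (difference 0.41 ± 0.11, SE). RRN5, a subunit of the upstream activating factor of RNA polymerase I, stood at 15.8 and 16.0 TPM in low, against 11.1 to 14.6 TPM in norm (0.35 ± 0.10, SE). DFR1, dihydrofolate reductase, NIT2, an amidase of the nitrilase family, and EMA17 were also above all 10 norm libraries in both low libraries, with differences of 0.34, 0.30 and 0.55. DMO1, at 34.8 and 33.1 TPM in low, was above the norm maximum of 33.8 TPM only in the library with 104 repeats.

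On the lower side, RPM2, the protein subunit of mitochondrial RNase P, stood at 4.59 and 5.25 TPM in low, against 6.09 to 8.60 TPM in norm (difference -0.45 ± 0.13, SE). KOG1, a subunit of the kinase complex TORC1, stood at 5.87 and 5.96 TPM in low, against 6.93 to 8.97 TPM in norm (-0.35 ± 0.11, SE). HAL9, a zinc-finger transcription factor named for salt tolerance, stood at 5.74 and 4.84 TPM in low, against 5.98 to 8.18 TPM in norm (-0.35 ± 0.11, SE). In each of the 3, the low libraries lay below all 10 norm libraries.

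PRM10, a pheromone-regulated membrane protein, and its neighbour YJL107C overlap at their ends on the minus strand of chromosome X. PRM10 stood at 5.38 and 6.14 TPM in low, against 6.47 to 9.55 TPM in norm. YJL107C, named after its values were seen, stood at 4.47 and 3.31 TPM in low, against 4.76 to 7.05 TPM in norm. Both frames were below the norm range in both low libraries. Another 3 uncharacterized frames were singled out after their values were seen. YAL064W-B was listed at 0 and 0.424 TPM in low and stood at 0.833 to 2.25 TPM in norm, with the second lowest adjusted p (0.453 in limma). YDR042C stood at 1.93 and 2.54 TPM in low, against 3.24 to 5.78 TPM in norm. YOR012W stood at 12.1 and 8.89 TPM in low, against 4.72 to 9.49 TPM in norm, and its low library with 166 repeats lay inside the norm range.

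The machinery that makes and removes poly(A) tails was looked at as a list, since it acts on the feature that the selection reads. Of 41 genes for tail synthesis, tail removal and 3′ end processing, 0 were called, beside 1 of the 5539 genes tested. At an unadjusted p under 0.05 in limma 3 were lower in low, beside 118 over all genes, and 0 were higher. A positive difference was seen in 10, beside 2477 over all genes, with a median of -0.06 beside -0.01 over all genes. Both low libraries were inside the norm range of the list's median. In 3 of 41 genes (7.32%), beside 1.73% of all genes, both low libraries lay below all norm libraries. They included MOT2, the ubiquitin ligase of the Ccr4-Not complex, at 19.8 and 21.5 TPM in low, against 22.3 to 27.0 TPM in norm. CDC39, the scaffold of the same complex, stood at 11.3 and 11.7 TPM in low, against 12.1 to 16.6 TPM in norm. The differences were -0.20 ± 0.08 and -0.27 ± 0.11 (SE), both at an adjusted p of 0.999 in limma. Among 33 mRNA decay genes 0 were called and 13 had a positive difference, and EDC1, an activator of decapping, stood at 36.7 and 42.6 TPM in low, against 30.1 to 39.3 TPM in norm.

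Genes of the ribosome held no call, beside 1 among the 5539 genes tested, of which 2477 had a positive difference. Of 81 entries for large-subunit proteins 0 were called and 48 had a positive difference, with a median of 0.01, and of 57 for small-subunit proteins 0 were called and 28 were positive. RPL37A stood at 2810 and 2956 TPM in low, against 3024 to 3949 TPM in norm, and it has a near-identical copy between which the deposited estimates may be split. Among 108 ribosome biogenesis factors 0 were called and 63 had a positive difference, and UTP22, a factor of the small-subunit processome, stood at 27.1 and 25.4 TPM in low, against 27.3 to 33.8 TPM in norm. Among 24 subunits of RNA polymerases I and III 0 were called, 12 positive. Among 78 mitochondrial ribosomal proteins 0 were called and 50 had a positive difference, with a median of 0.02. MRP10 stood at 89.1 and 90.2 TPM in low, against 92.3 to 130 TPM in norm. RPL37A, UTP22 and MRP10 were each the only gene of their list below all norm libraries in both low libraries. They made up 1.23%, 0.926% and 1.28% of their lists, beside 1.73% of all genes. RPL4A and MRPL19 were each above the norm range in only 1 low library, both at an adjusted p of 0.999 in limma. RPL4A stood at 3004 TPM with 104 repeats and 3462 TPM with 166 repeats, against 2612 to 3292 TPM in norm. MRPL19 stood at 62.8 TPM with 104 repeats and 58.1 TPM with 166 repeats, against 46.1 to 60.0 TPM in norm.

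None of the metabolic lists held a called gene, beside 1 among the 5539 genes tested, of which 2477 had a positive difference. Of 63 amino acid biosynthesis genes 22 had a positive difference, and 3 (4.76%, beside 1.73% of all genes) lay below the norm range in both low libraries. LEU1, isopropylmalate isomerase, stood at 56.7 and 59.2 TPM in low, against 61.1 to 75.2 TPM in norm. SER3, a phosphoglycerate dehydrogenase, stood at 17.4 and 16.3 TPM in low, against 17.6 to 23.8 TPM in norm. Of 19 aminoacyl-tRNA synthetases 3 had a positive difference, with a median of -0.07, and MES1, the methionyl enzyme, stood at 117 and 110 TPM in low, against 119 to 140 TPM in norm. ADE8, an enzyme of purine synthesis, was above the norm range at 117 and 113 TPM in low, against 87.4 to 110 TPM in norm. Glycolytic enzymes, hexose transporters, citric acid cycle enzymes, stress genes, chaperones and proteasome subunits held 0 of 155 genes outside the norm range in both low libraries, beside 2.37% of all genes.

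Nutrient regulons showed single genes at the edge of the norm range. Of 21 thiamine genes tested 4 had a positive difference, beside 2477 of 5539 over all genes. The list's median deviation was -0.08 and -0.11 in low, against -0.06 to 0.06 in norm, with both low libraries below. Both remained below in 10 of 15 other settings. Under quantile normalisation neither was below, the one with 166 repeats was not below after the dependence on length and level was taken out, and the one with 104 repeats was not below without the norm libraries with 84 or 237 repeats, or with both 197 and 224 left out. The summed TPM of the 21 genes was not lower, at 380 and 408 in low, against 306 to 413 with a median of 379 in norm. THI2, the activator of the thiamine genes, stood at 1.70 and 1.62 TPM in low, against 1.80 to 2.64 TPM in norm. ZAP1, the zinc-responsive activator, stood at 4.82 and 5.24 TPM in low, against 5.63 to 7.33 TPM in norm, while its list of 13 zinc genes had a median difference of 0.03. FIT3, a cell wall mannoprotein of iron uptake, stood at 17.8 and 17.9 TPM in low, against 18.4 to 25.5 TPM in norm. None of these passed the test, at an adjusted p of 0.999 each in limma.

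Of 42 lists with at least 3 genes tested, 32 had both low libraries inside the norm range of the list's median. The low library with 104 repeats lay outside it in 7 lists and the one with 166 repeats in 6. Both lay outside on the same side in 3 lists, the mitochondrially encoded (by the 7 entries tested), nuclear respiratory chain and thiamine genes described above.

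**Figure D5:**
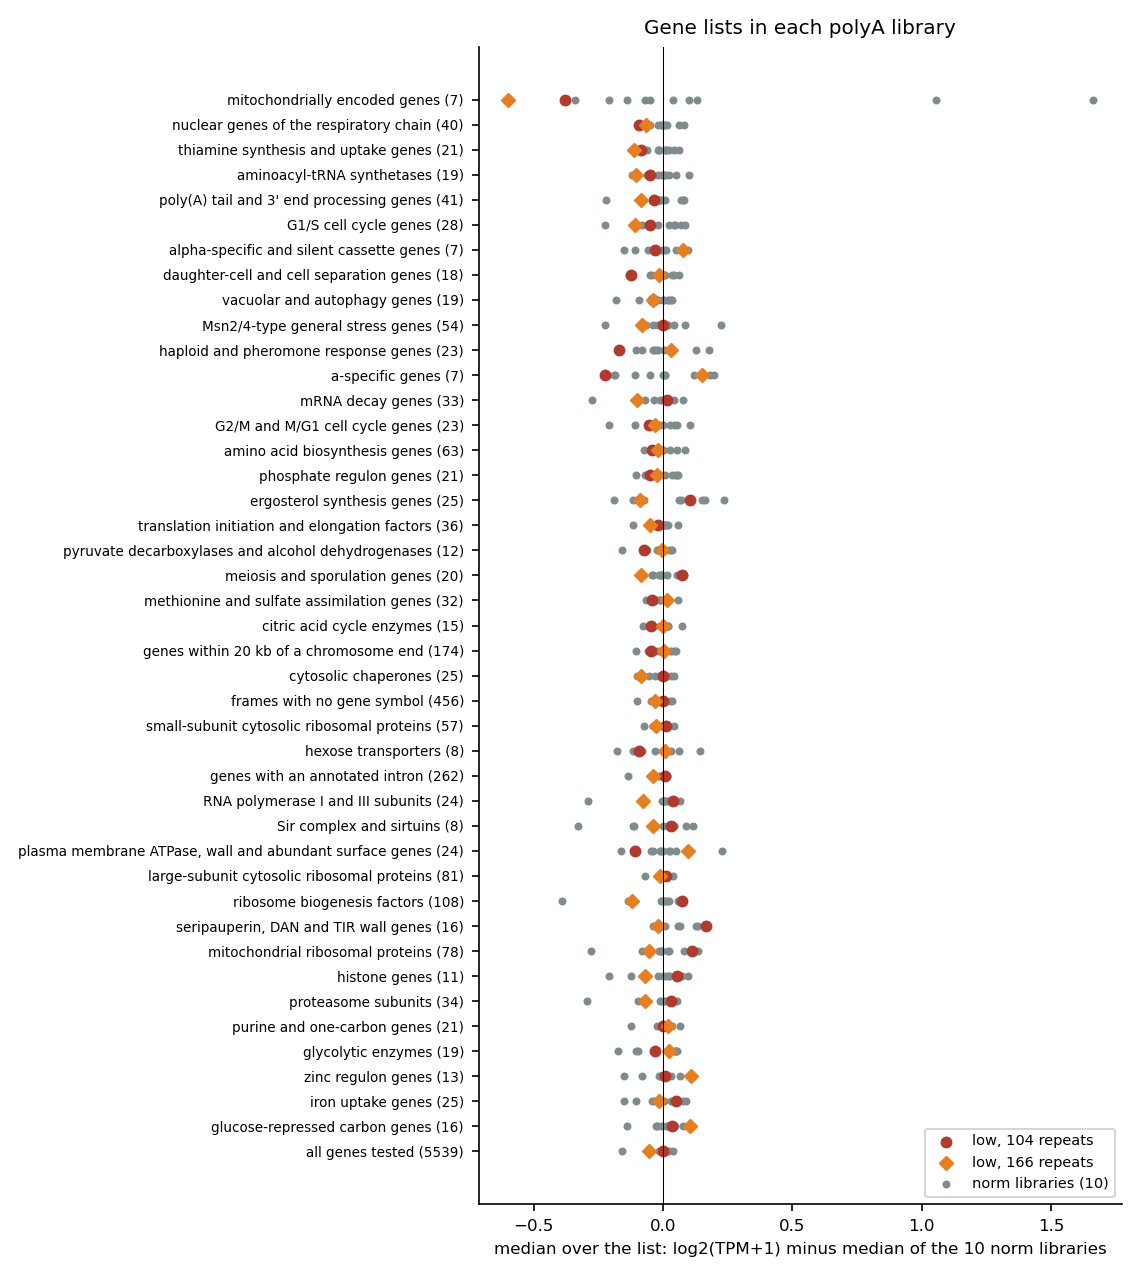
Median over each gene list of the deviation from the norm median, log2(TPM + 1), in the low libraries with 104 and 166 repeats (coloured) and the 10 norm libraries (grey), with the number of genes tested in brackets. The low libraries fall within the spread of norm in most rows, and both lie below it for the 7 tested mitochondrially encoded genes at -0.38 and -0.60, of which 3 passed the filter only through high norm libraries.

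Markers of mating type were read in both low libraries, with the a-specific genes MFA2 and STE2 far above the alpha-specific genes named here. Not every pair of markers was so far apart. The a-specific gene ASG7 stood at 26.7 and 44.1 TPM in low, against 18.5 to 43.2 TPM in norm. AFB1, looked at among the alpha-specific markers, stood at 19.2 and 38.2 TPM in low, against 24.6 to 37.3 TPM in norm. MFA2, an a-factor gene, stood at 6919 and 8385 TPM in low, against 6869 to 10140 TPM in norm, and STE2, the alpha-factor receptor of a cells, at 374 and 463 TPM, against 382 to 466 TPM in norm. STE3, the receptor of alpha cells, stood at 2.70 and 3.89 TPM in low, against 2.48 to 4.51 TPM in norm. SAG1, the alpha-agglutinin gene, stood at 9.27 and 12.4 TPM in low, against 10.2 to 12.3 TPM in norm. The alpha-factor gene MF(ALPHA)2 stood at 1.25 and 2.76 TPM in low, above all 10 norm libraries at 0 to 1.22 TPM, but its mean was too low to be tested. MF(ALPHA)1 stood at 1.77 and 0.835 TPM in low, against 0 to 1.28 TPM in norm. NDT80, the meiotic activator, stood at 0.636 and 0.533 TPM in low, against 0.189 to 0.735 TPM in norm. Other markers of sporulation were higher: IME1 stood at 5.23 and 4.90 TPM in low, IME2 at 2.99 and 2.53 TPM. SPS4 stood at 3.16 and 1.94 TPM, SPO11 at 2.12 and 2.31 TPM and DIT1 at 1.40 and 2.34 TPM, while SPR3 was at 0.306 and 0.133 TPM. All of these lay inside their norm range in both low libraries. CAN1 and LYP1, named as deleted in the genotype, were listed at 0 in all 12 libraries. HIS3 was read at 86.1 and 95.6 TPM in low and at 86.0 to 103 TPM in norm, so its level does not bear out a loss of the transcript, and the labels do not say which part the allele his3d1 removes. The a-specific genes split the low libraries: their median deviation was -0.23 with 104 repeats and 0.15 with 166 repeats, and AGA2, a subunit of a-agglutinin, stood at 443 and 792 TPM in low, against 514 to 864 TPM in norm. Of 23 haploid and pheromone response genes 0 were called, and STE5, the scaffold of the pheromone kinase cascade, stood at 11.9 and 11.7 TPM in low, against 12.4 to 15.2 TPM in norm.

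SIR2, the histone deacetylase that silences rDNA, stood at 13.2 and 16.0 TPM in low, against 9.81 to 19.8 TPM in norm with a median of 16.0. The difference was -0.09 ± 0.22 (SE), with a 95% interval of -0.56 to 0.38 and an adjusted p of 0.999 in limma. Both low libraries lay inside the norm range, and a difference within this interval was not detectable with 2 low libraries.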

How the data were processed

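PolyA-selected RNA of 12 strains, with 1 library a strain, was analysed from the deposited TPM values, which sum to 1000000 in each library and keep no depth. Per the submitters' processing notes, the authors used Salmon 0.8.1 and the build sacCer3; the sources used here give no settings. Each file holds 5919 entries, of which 96 spike-ins were at 0 throughout and were left out. Of the other 5823 entries, 5817 matched the RefSeq annotation of R64, which gave coding lengths, runs of A and sequences.

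Values were taken as log2(TPM + 1), which understates changes of low genes, for the 5539 genes whose mean reached 1 TPM. Among them 12 genes share their values with another. Low was tested against norm with limma 3.58.1 in R 4.3.3 (moderation with trend, robust), two-sided, with Benjamini-Hochberg adjustment over all genes at 0.05; the test was checked on simulated data. All 12 libraries share 1 estimate of the spread. Range counts ask whether both low values lie beyond all norm values. Whole-library measures used exact permutation tests over 66 arrangements (Python 3.11.15, scipy 1.17.1).

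The text names the 6 genes with a symbol of lowest p in each direction, the tested mitochondrially encoded genes, SIR2, the deleted loci, and, of the 2 genes of lowest p in each list, those that bear on the description. The members and lists were chosen with earlier results of these data known. A gene that this rule chose is not reported here. A list of Ty frames matched 0 entries. The libraries of total RNA were not used. Alternatives were 2 other pseudocounts, other filters on low values, 3 other scalings, covariates, other moderation, other norm sets and leaving out each library.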

Additional observations from a re-analysis of the deposited data

Results flagged for a closer look

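Among the 10 norm libraries, 1 library often stood apart from the other 9, measured by its gap to the nearest other library as a share of the norm range. Of 164 groups of values examined 22 were flagged in this way, where chance flags about 1 in 20, and the groups share libraries and genes.

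The norm library with 208 repeats was the one apart in 12 of them. It had the highest share of TPM in the top 50 genes (gap 0.701 of the range) and the highest median absolute log2 deviation (0.718). It was lowest for HSC82, a cytosolic Hsp90 (0.551), and highest for the histone gene HTB2 (0.598). Its list medians were lowest for genes with an annotated intron (0.772), poly(A) tail and 3′ end processing genes (0.664), RNA polymerase I and III subunits (0.590), mRNA decay genes (0.579), ribosome biogenesis factors (0.573), proteasome subunits (0.566), the Sir complex and sirtuins (0.477) and mitochondrial ribosomal proteins (0.473). The library was also lowest in norm over all genes tested, with a median deviation of -0.158, beside -0.135 for genes with an annotated intron. Whether any of these lists differed beyond that general shift was not tested.

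The norm library with 147 repeats was lowest for the plasma membrane ATPase gene PMA1 (0.530), the glucan synthase gene FKS1 (0.524), purine and one-carbon genes (0.530), glucose-repressed carbon genes (0.526) and pyruvate decarboxylases and alcohol dehydrogenases (0.491), and highest for MOT2 (0.505). Other norm libraries stood apart for 1 gene each: PAU24 with 224 repeats (0.576), PHO85 with 197 repeats (0.501), PHO11 with 72 repeats (0.497) and SPS4 with 237 repeats (0.486).

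Each low library was also set against the norm libraries of its own strain series. For 3 lists and 4 genes the 2 low libraries lay on opposite sides of all norm libraries of their own series. The data held 42 lists with at least 3 genes tested, and 115 named genes tested. With 3 norm libraries in each of these series such a split can arise by chance, and this difference was not tested. The effect with 104 repeats minus that with 166 repeats, in log2 units, was -0.25 for haploid and pheromone response genes, 0.20 for meiosis and sporulation genes and -0.0859 for methionine and sulfate assimilation genes. It was -0.79 for AFB1, an a-pheromone blocker, -0.38 for SAG1, the alpha-agglutinin gene, -0.26 for HIS3 and 0.69 for SPS4, a sporulation gene.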

How the results depend on the processing

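The count of 1 called gene was 1 with pseudocounts of 0.1 and 5 TPM, a mean of at least 10 TPM, median-ratio scaling, quantile normalisation and trend removal. It was 2 with no filter, which added YDL007C-A, at 0.752 and 0.840 TPM in low and listed at 0 in all norm libraries. It was 0 with norm of CGY24 and CGY28 only, with repeat number or strain series as covariate, with eBayes without trend and robust, and, chosen after seeing the data, without the norm libraries with 197 and 224 repeats (125 to 190 genes at an unadjusted p under 0.05 in limma). Leaving out each library gave 0 to 1. YNL143C was called in 10 of 24 alternatives, with differences from 0.93 to 1.90 and adjusted p from 0.000754 to 0.795 in limma. The 37 higher and 118 lower genes at an unadjusted p under 0.05 became 88 and 152 with median-ratio scaling, 101 and 142 with quantile normalisation, and 75 and 96 with the trend removed. The 131 genes outside the norm range became 86 with a mean of at least 10 TPM, 340 against norm of CGY24 and CGY28 only, and 1 with a margin of 0.5; leaving out 1 library gave 140 to 1003, with 682 and 1003 for a single low library, 206 without norm 147 and 260 without norm 208. The 35 above and 96 below became 69 and 111 with median-ratio scaling (86 genes shared with the 131) and 70 and 107 with quantile normalisation (68 shared). Leaving out a library, low minus norm ran from -0.7 to 7.3 for entries at 0 and from -0.11 to 0.852 percentage points for the top 50 share, negative only without the low library with 166 repeats. It ran from -0.28 to -0.16 for the correlation with coding length, 0.04 to 0.33 with GC content, 0.13 to 0.18 with abundance (0.17, exact permutation p = 0.0364, without norm 208) and 0.00881 to 0.0302 for the median deviation. Of 115 named genes tested, 21 changed sign in some alternative and 0 others became called. No paired analysis was possible because each strain gave 1 polyA library, so no strain had both labels. With 1 library a strain, 2 low libraries and no depth in TPM, small differences of low genes could not be resolved.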
